A study of Mus musculus with 29 samples.

Results

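The comparison is of C70 with vehicle in confluent 3T3-L1 preadipocytes at day 0, the last moment before hormonal induction of differentiation. It rests on the 7 samples that the labels place at day 0, 4 with C70 and 3 with vehicle, out of 29 samples in the series, and on all 11959 genes of the deposited count table. 3T3-L1 is an established line of mouse fibroblasts that can be turned into white fat cells by hormones. C70 (KDM5-C70) is an inhibitor of KDM5 histone demethylases. Cells were given 10 µM C70 or the DMSO vehicle at day -2, when they were fully confluent, and RNA was collected at day 0 with no differentiation hormones added. The other samples were collected at days 1, 2 and 7 of differentiation after the same exposure from day -2 to day 0. The labels number the replicates but do not say whether they were separate cultures, so P values measure the spread between these samples, which may be technical. All samples come from a single cell line.

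KDM5 enzymes remove methyl groups from lysine 4 of histone H3, and the trimethylated form of this residue (H3K4me3) marks the promoters of active genes. In preadipocytes, the transcription factors Cebpb, Cebpd, Pparg and Cebpa act in sequence to turn on fat cell genes, while Dlk1 (Pref1) is a secreted and membrane-bound inhibitor that is lost as cells differentiate. The comparison asks which genes respond to the inhibitor in preadipocytes that have not yet been induced. No chromatin was measured in these samples, so the values below are RNA levels only.

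Values are given as CPM, each gene's count scaled to a library of fixed size after TMM normalization. Total counts in the 7 samples ranged from 18504079 to 24037170. The chi-square per degree of freedom between replicates ranged from 2.73 to 13, with the highest values, 10.5 and 13, for C70 replicate 2 against replicates 3 and 4. A gene was called when edgeR's quasi-likelihood test gave a Benjamini-Hochberg adjusted P value under 0.05 and the log2 fold change was beyond 0.3219 in either direction. In simulated counts for this comparison, the test recovered 97% of genes changed 2-fold and 91% of genes changed 1.5-fold. Each simulated gene had the usual spread for its level, so genes that vary more may be recovered less often. Markers of the labelled cell type were present, as 10 of 11 preadipocyte and mesenchymal markers were in the table, with a summed level of 7430 to 7700 CPM in vehicle samples. Of 12 mature adipocyte markers 11 were in the table, with a summed level of 1320 to 1450 CPM in vehicle samples. Of 11 macrophage and leukocyte markers 2 were in the table, of 8 endothelial markers 1, of 7 myogenic markers 1 and of 7 epithelial markers 0. The table was filtered over all 29 samples, so presence in it does not by itself show expression at day 0.

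Of 4 KDM5 genes listed, 3 were in the table, and their RNA was present and not called in either direction. Kdm5d was not in the table. RNA does not show protein, and the paper detected KDM5B protein in mature adipocytes but not in preadipocytes before confluence. Kdm5a had 201, 186 and 203 CPM in vehicle and 202, 205, 205 and 199.9 CPM with C70, Kdm5b had 196, 195 and 208 CPM in vehicle and 185, 194, 191 and 195 CPM with C70, and Kdm5c had 167, 169 and 173 CPM in vehicle and 171, 178, 175 and 174 CPM with C70. The C70 and vehicle ranges overlapped for Kdm5a and Kdm5c, and every C70 sample of Kdm5b was slightly below every vehicle sample. Log2 fold changes were 0.043, -0.063 and 0.039, with standard errors of 0.0886, 0.0521 and 0.0656 and adjusted P values of 0.803, 0.456 and 0.754 by edgeR's quasi-likelihood test. Inhibition of an enzyme's activity need not change its RNA, so these values do not check the treatment labels. Of 21 other H3K4 methyltransferases and demethylases in the table, 1 (4.76%) was called lower, against 3.09% of all genes. It was Setd1b, an H3K4 methyltransferase, at -0.36. Of 20 other genes of JmjC proteins, the enzyme class to which KDM5 belongs, 1 (5%) was called lower, against 3.09% of all genes. It was Jmjd8, at -0.33. Jmjd8 stayed below the fold change threshold without vehicle replicate 1 or 2 or C70 replicate 3, where its log2 fold change was -0.30, -0.31 and -0.30.

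C70 changed 1073 genes at day 0, and the changes were mostly rises. Of 11959 genes tested, 8.97% were called: 704 (5.89%) were higher with C70 and 369 (3.09%) were lower. The rises were also larger. Among the called genes, 116 rose more than 2-fold and 7 fell more than 2-fold, and 9 rose more than 4-fold against 1 that fell so far. The median log2 fold change was 0.57 among genes called higher, -0.42 among genes called lower and -0.0004257 over all genes. In 4065 genes (34% of those tested), every C70 sample lay on 1 side of every vehicle sample, and 1028 of the 1073 called genes were among them. Most called genes therefore had no overlap between groups, but most genes with no overlap were not called.

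**Figure D1:**
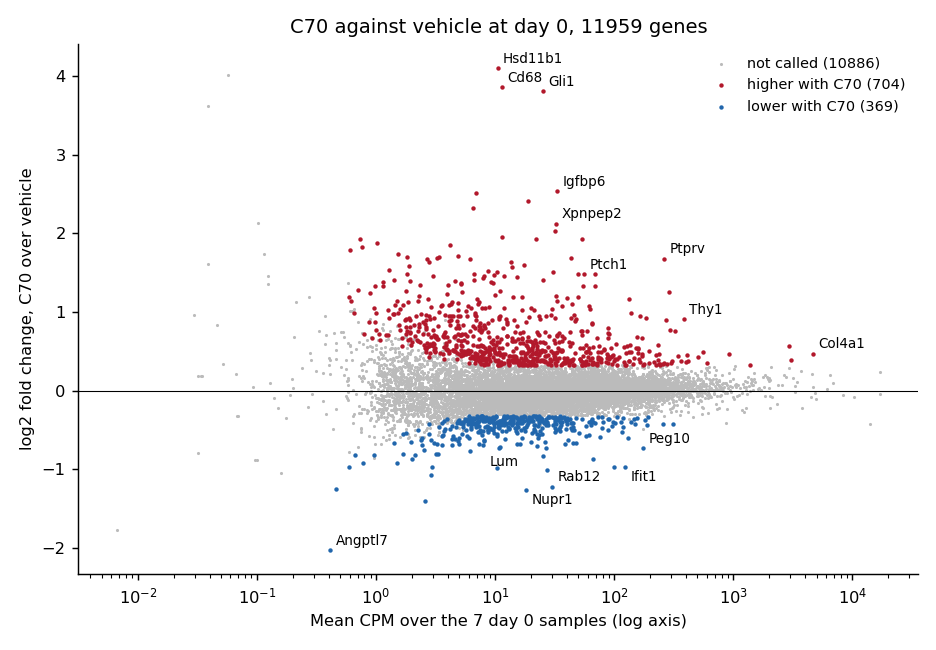
Each point is 1 of 11959 genes, plotted by its mean CPM over the 7 day 0 samples (log axis) and its log2 fold change of C70 over vehicle. The 704 genes called higher (red) reach a log2 fold change of 4.10 and the 369 called lower (blue) reach -2.03. Grey points far from 0 at the left are genes of very low level that did not pass the test.

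The 4 windows printed are those of the genes with the largest rises (Igfbp6, Xpnpep2) and falls (Rab12, Atf7ip) among genes above the median level. They are RefSeq sequences on GRCm38.p6, the 250 bases before the start RefSeq gives, which for Igfbp6, Rab12 and Atf7ip is not the gene's outermost start in the annotation used for coordinates below. For Rab12 and Atf7ip the window overlaps the gene as annotated there. They are printed 5′ to 3′ on the gene's strand, with CG dinucleotides, the sites of DNA methylation, in capitals.
Igfbp6, chr15:102143936-102144185, plus strand: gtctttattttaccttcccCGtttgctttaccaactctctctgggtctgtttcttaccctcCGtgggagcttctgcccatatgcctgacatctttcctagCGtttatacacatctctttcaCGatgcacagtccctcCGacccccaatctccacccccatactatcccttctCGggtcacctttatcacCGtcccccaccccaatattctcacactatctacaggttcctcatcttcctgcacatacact
Xpnpep2, chrX:48108475-48108724, plus strand: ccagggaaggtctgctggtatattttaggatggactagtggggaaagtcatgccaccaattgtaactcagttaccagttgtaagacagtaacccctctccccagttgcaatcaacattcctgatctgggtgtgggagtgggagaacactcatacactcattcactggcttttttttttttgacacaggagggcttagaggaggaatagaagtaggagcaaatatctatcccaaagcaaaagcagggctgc
Rab12, chr17:66519671-66519920, minus strand: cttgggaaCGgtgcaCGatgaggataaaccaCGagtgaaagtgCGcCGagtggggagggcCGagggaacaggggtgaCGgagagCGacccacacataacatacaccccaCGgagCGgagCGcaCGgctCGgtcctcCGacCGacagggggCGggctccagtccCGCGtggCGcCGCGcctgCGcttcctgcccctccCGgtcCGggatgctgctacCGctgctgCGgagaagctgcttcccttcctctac
Atf7ip, chr6:136518601-136518850, plus strand: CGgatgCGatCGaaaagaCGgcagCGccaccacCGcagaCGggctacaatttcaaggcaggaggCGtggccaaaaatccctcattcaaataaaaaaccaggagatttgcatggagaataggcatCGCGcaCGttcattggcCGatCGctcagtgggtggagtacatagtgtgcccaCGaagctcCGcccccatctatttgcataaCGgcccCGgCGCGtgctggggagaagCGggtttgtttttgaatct
These windows hold 7, 0, 26 and 20 CG dinucleotides, against a median of 6 over 32851 windows in the RefSeq table. The promoters of the falling pair were above 16, the bound of the top 25% of windows, and those of the rising pair were not. A comparison of CpG content over all called genes was void, because only 71.6% of genes called higher had a window in the table.

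Igfbp6, a secreted binding protein with a preference for IGF2, rose most among genes above the median level. It had 8.701, 8.94 and 8.82 CPM in vehicle and 53.3, 47.3, 54.7 and 49.2 CPM with C70. The groups were far apart, with little spread within either. This was a rise of 2.54 on the log2 scale, with a standard error of 0.125 and an adjusted P value of 8.53e-16. Igfbp6 lies on chromosome 15 of GRCm38, 102144362 to 102149511. Xpnpep2 (chromosome X of GRCm38, 48108725 to 48136981), a membrane-bound aminopeptidase, had 10.3, 11.8 and 11.4 CPM in vehicle and 45.4, 50.5, 48.6 and 49.7 CPM with C70, a 4.35-fold rise with a clear gap between the groups. Dnm3, a dynamin of membrane fission, rose 4.098-fold, from 11.4 ± 2.38 (SD, n = 3) to 46.8 ± 4.18 CPM (SD, n = 4). Eno3, the muscle form of the glycolytic enzyme enolase, rose 3.799-fold, from 20.7 ± 0.800 to 78.6 ± 1.89 CPM. P2rx3, an ATP-gated ion channel, rose by 1.68 on the log2 scale. The other large rises of this level class were Ptprv (1.68), a receptor phosphatase gene annotated as a processed transcript, Tle6 (1.51), a corepressor of the Groucho family, Ptch1 (1.48), Lrrn4cl (1.48) and Lsp1 (1.48), an actin-binding protein of leukocytes. All of these genes were also called higher at day 1. Ptprv, at 114, 114 and 118 CPM in vehicle and 358, 384, 377 and 359 CPM with C70, and Lsp1, at 23.6, 25.7 and 24.7 CPM in vehicle and 67.2, 71.3, 69.2 and 67.5 CPM with C70, had the smallest adjusted P values of any gene after Gli1 (1.33e-18 and 1.62e-18). Reads from Dnm3, P2rx3 and Ptprv could include those of genes annotated on the opposite strand, of which Ssrp1, across from P2rx3, is protein coding.

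Falls among genes above the median level were smaller. This level is the mean over the 7 samples, so C70 values can carry a rising gene past it and vehicle values a falling one. Vehicle means of Igfbp6 (8.82 CPM), Xpnpep2 (11.2 CPM) and Eno3 (20.7 CPM) were below its bound of 29.74 CPM. Those of Ptprv (115 CPM) and Lrrn4cl (34.2 CPM) were above it. The C70 mean of Rab12 (19.1 CPM), a fall, was below that bound too. Membership of this class therefore depends on the fold change, and the difference in size between its rises and falls was not tested. Rab12 (chromosome 17 of GRCm38, 66494512 to 66519729), a small GTPase of endosome traffic, had 44.6, 45.4 and 44.2 CPM in vehicle and 20.04, 17.7, 19.4 and 19.5 CPM with C70. It fell by 1.22 on the log2 scale (standard error 0.065, adjusted P = 4.53e-15). Atf7ip (chromosome 6 of GRCm38, 136506167 to 136610862), which stabilises the H3K9 methyltransferase SETDB1 and serves gene silencing, had 132, 139 and 146 CPM in vehicle and 69.1, 75.5, 69.99 and 68.99 CPM with C70. It fell by 0.97, to about the same extent in each C70 sample. Fmr1, an RNA-binding protein of translation control, fell from 159.9, 145 and 178 CPM to 102, 103, 104 and 115 CPM. Peg10, an imprinted gene derived from a retrotransposon, fell by 0.73 and Ivd, a mitochondrial enzyme of leucine breakdown, by 0.63. Angptl4, a secreted inhibitor of lipoprotein lipase, fell from 64.6, 57.8 and 50.8 CPM to 37.97, 35.7, 35.5 and 36.1 CPM, again with no overlap. The remaining 4 of the 10 largest falls, Ifit1, Irgm2, Gbp7 and Ifit2, are described with the interferon-stimulated genes.

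The largest fold changes of all belonged to genes at or below the median level. Hsd11b1 (chromosome 1 of GRCm38, 193221634 to 193264075), the enzyme that regenerates active glucocorticoid inside cells, had 1.17, 1.403 and 0.511 CPM in vehicle and 15.2, 18.6, 19.01 and 17.7 CPM with C70. It was near the detection limit in vehicle and present in all 4 C70 samples. Cd68, a lysosomal membrane glycoprotein best known as a macrophage marker, had 1.13, 1.14 and 1.67 CPM in vehicle and 18.7, 18.9, 19.8 and 18.96 CPM with C70, a 14.5-fold rise. Of the 11 leukocyte markers above, Cd14, a lipopolysaccharide co-receptor, was the other in the table and was not called, and the summed level of both was 7.81 to 8.91 CPM in vehicle and 25.7 to 26.8 CPM with C70. The 9 others, Ptprc, Adgre1, Csf1r, Itgam, Lyz2, Tyrobp, Fcer1g, Aif1 and C1qa, were not in the table. S100a8, a neutrophil and macrophage protein from a longer leukocyte list, was not called, while Itgb2, the leukocyte integrin beta chain, was called higher (0.54, adjusted P = 0.00153). Both were named after their values were seen. The 1 endothelial marker in the table, Egfl7, a secreted protein of vessels, had 2.46, 3.12 and 2.69 CPM in vehicle and 4.14, 4.46, 4.07 and 5.58 CPM with C70 and was called higher (0.74, adjusted P = 0.00265). The groups did not overlap, but after quantile normalization (0.6, limma adjusted P = 0.0553) it was not called, and Agpat2 overlaps it on the opposite strand. The part of such cells in other results was not tested. In bulk RNA, a change in the number of cells of a type and a change in RNA per cell cannot be told apart. Ptpn6, the phosphatase SHP-1, rose from 2.01, 2.39 and 1.21 CPM to 10.98, 10.2, 10.97 and 10.3 CPM, and Acsbg1, an acyl-CoA synthetase, from 4.95, 6.55 and 5.06 CPM to 29.3, 29.4, 31.6 and 25.98 CPM. Both were separated from vehicle by a wide margin. Nupr1, a stress-induced chromatin protein, showed the opposite, with 28.1, 27.5 and 25.95 CPM in vehicle and 12.5, 11.8, 11.2 and 10.2 CPM with C70, a fall of 1.26 (adjusted P = 2.7e-12). Angptl7 (-2.03) and Cacng4 (-1.41), a calcium channel subunit, also fell, at levels of at most 1.05 and 4.95 CPM in vehicle. Angptl7, the 1 fall beyond 4-fold, was called in every setting that kept it in the table (the filter of 5 CPM removed it) but ranged from -2.19 to -1.02, the smallest fall being that after quantile normalization. Without vehicle replicate 1, and by limma with trend, its fall was also under 4-fold. Camkmt, a calmodulin methyltransferase, fell by 1.07.

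**Figure D2:**
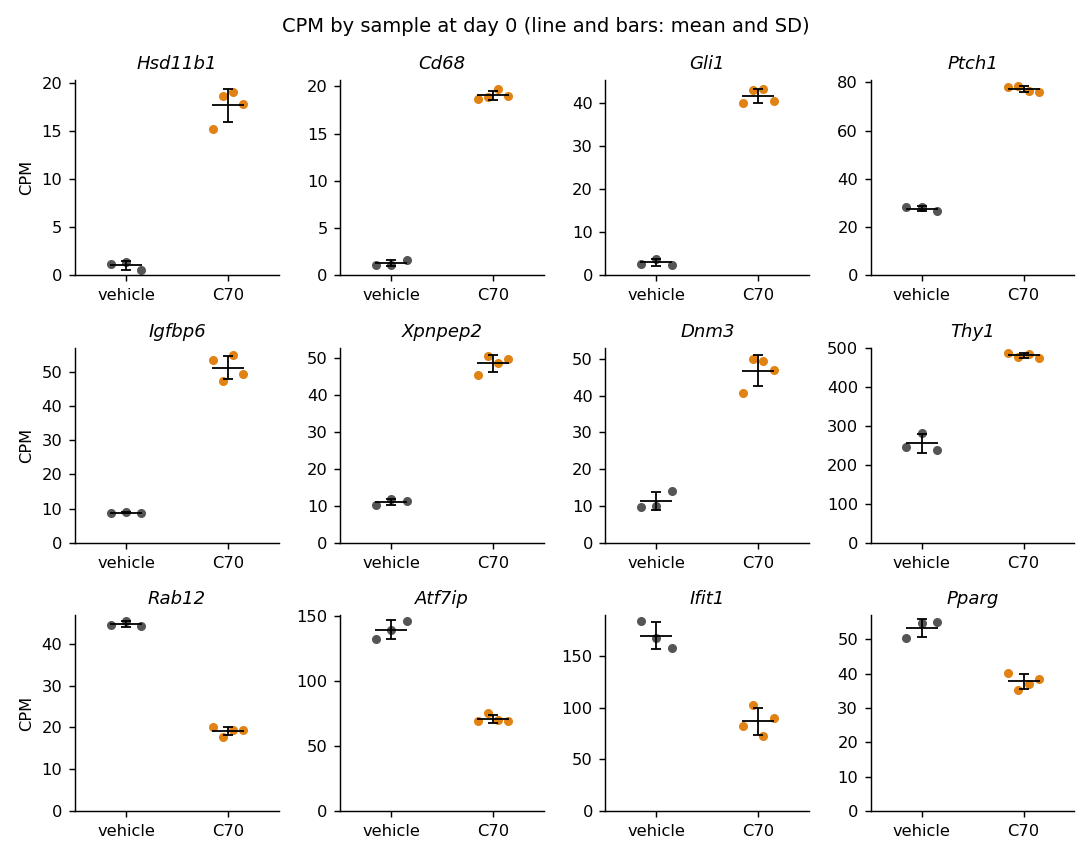
CPM of 12 genes in each day 0 sample, with 3 vehicle samples (grey) and 4 C70 samples (orange), and bars for the mean and SD. In each panel the groups do not overlap, from Hsd11b1, at up to 1.403 CPM in vehicle and at least 15.2 CPM with C70, to Pparg, which falls by 0.50 on the log2 scale.

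Gli1 and Ptch1, transcriptional readouts of Hedgehog signalling, rose. This group was chosen after its values were seen, and is described without a test of the group. In this pathway, the ligand relieves repression of Smo by Ptch1, and GLI transcription factors then act on targets that include Gli1 and Ptch1 themselves. Gli1 (chromosome 10 of GRCm38, 127329882 to 127341974) had 2.699, 3.897 and 2.46 CPM in vehicle and 40.1, 43.05, 43.3 and 40.6 CPM with C70, a log2 fold change of 3.80 with the smallest adjusted P value of any gene (1.33e-19). The receptor Ptch1 (chromosome 13 of GRCm38, 63508328 to 63573598) had 28.2, 28.3 and 26.5 CPM in vehicle and 78.1, 78.4, 76.5 and 76.1 CPM with C70. For both genes all C70 samples lay well above all vehicle samples. Gli2, the main activator among the GLI factors, rose from 76.6, 83.9 and 79.6 CPM to 116, 128, 119 and 120.4 CPM, and Foxf2, a forkhead factor and known target, rose by 0.51. Upstream members did not pass the thresholds: Smo was at 0.046, the co-receptors Boc, Cdon and Gas1 at 0.087, 0.038 and -0.14, Gli3 at -0.056 and the inhibitor Sufu at -0.15. Kif7, a ciliary kinesin that binds GLI proteins, was called lower (-0.43), and Evc and Evc2, ciliary partners of Smo, were at -0.30 and -0.25, under the fold change threshold. Of 15 genes of the group in the table, 4 (26.7%) were higher and 1 (6.67%) was lower, against 5.89% and 3.09% of all genes, and 8 of the 15 were below 0 (median -0.056). The ligands Shh, Ihh and Dhh and the decoy receptor Hhip were not in the table. Gli1 had the highest log2 fold change of these raised genes on every later day, with log2 fold changes of 3.35, 4.38 and 2.37 at days 1, 2 and 7. Gli1 and Kif7 overlap genes annotated on the opposite strand (Arhgap9 and Ticrr). The libraries were strand-specific, but the use of strand in counting is not given in the sources used here, so reads of such pairs may not have been told apart. The same holds for Jmjd8 (Stub1) and Kdm5a (Ccdc77) above, and below for Cebpb (Tmem189), Cebpd (Spidr), Ccnd1 (LTO1), Fgf2 (Nudt6), Mest (Copg2), Timp4 (Syn2), Thbs3 (Mtx1), Nid2 (Rtraf), Plin4 (Hdgfl2), Tagln (Pcsk7), G6pdx (Ikbkg), Glul (Teddm2), Gss (Acss2), Slc6a9 (B4galt2 and Ccdc24) and Irak3 (Tmbim4), and other named genes have noncoding or predicted genes across from them.

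Genes of preadipocytes and mesenchymal progenitors were higher with C70 in 7 of 26 cases (26.9%) and lower in 2 (7.69%). The shares of all genes were 5.89% and 3.09%, and the list's median log2 fold change was 0.15. The largest rises were those of 4 surface or secreted proteins of progenitors, while Pdgfra and Pdgfrb, other surface markers of the list, were not called. Ly6a (Sca-1) had 35.7, 42.9 and 33.4 CPM in vehicle and 100.1, 94.5, 92.9 and 87.3 CPM with C70, and its paralog Ly6c1 had 11.7, 15.95 and 11.2 CPM in vehicle and 34.6, 35.02, 32.96 and 34.3 CPM with C70, a similar rise. As these are close paralogs, reads may have been divided between copies. Thy1 (CD90), a stromal cell surface glycoprotein, rose from 246, 283 and 237 CPM to 487, 476, 483 and 475 CPM, and Pi16, a marker of fibroblast progenitors, by 1.37. Klf3, a repressor of adipogenesis, fell by 0.52 and Osr1, a mesenchymal zinc finger factor, by 0.40. Dlk1 was among the most abundant transcripts, with 2579, 2666 and 2470 CPM in vehicle and 2921, 3012, 2973 and 2746 CPM with C70. Every C70 value was above every vehicle value, but the log2 fold change of 0.18 (standard error 0.0914) did not pass the test (adjusted P = 0.182) and was -0.064 after quantile normalization. It was called higher on each later day, at 0.39, 0.97 and 0.82.

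Transcription factors of adipogenesis were called in both directions. Of 25 factors in the table, 5 (20%) were higher and 1 (4%) was lower, against 5.89% and 3.09% of all genes. The list's median was 0.059. The one that fell was Pparg, the central regulator of fat cell formation, with 50.4, 54.8 and 54.97 CPM in vehicle and 40.3, 35.3, 36.9 and 38.5 CPM with C70. It fell by 0.50 on the log2 scale, with a standard error of 0.0573 and an adjusted P value of 1.1e-07, and every C70 sample lay below every vehicle sample. Cebpa, its partner, rose from 13.5, 11.9 and 11.1 CPM to 17.8, 16.9, 14.7 and 14.6 CPM. This small rise of 0.39 was not called without vehicle replicate 3 (0.33, adjusted P = 0.0618). The early factors Cebpb (0.21, adjusted P = 0.419) and Cebpd (0.34, adjusted P = 0.089) were not called, and for Cebpb 1 C70 sample, at 58.9 CPM, lay below all vehicle samples. Cebpd was called without C70 replicate 4 (0.435, adjusted P = 0.0332), by DESeq2 (adjusted P = 0.0401) and by limma with trend (adjusted P = 0.0453). With a replicate block over the 7 samples, edgeR called Cebpb (0.337, adjusted P = 9.17e-06) and Cebpd (0.432, adjusted P = 0.000261). No vehicle sample shares the number of C70 replicate 4, so in that fit this sample does not bear on the difference between groups. It is the sample with 58.9 CPM of Cebpb. Klf4, Klf5 and Egr2 (Krox20), early activators, rose by 0.50, 0.41 and 0.72.

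Of 35 mature adipocyte genes, 3 (8.57%) were higher and 2 (5.71%) were lower, against 5.89% and 3.09% of all genes, with a median of 0.16. Fabp4, the fatty acid binding protein of fat cells and a Pparg target, had 50.8, 49.6 and 51.3 CPM in vehicle and 34.7, 38.6, 39.6 and 39.03 CPM with C70, a fall of 0.41 (adjusted P = 0.000638). Elovl6, a fatty acid elongase, fell by 0.41. Plin4, a lipid droplet protein, rose by 0.36, from 108, 98.0 and 106 CPM to 127, 134, 137 and 135 CPM, and was under the fold change threshold at 0.32 without vehicle replicate 2. Mgll, which hydrolyses monoacylglycerol, and G0s2, an inhibitor of the lipase ATGL, rose by 1.38 and 1.82, but only from vehicle levels of at most 0.727 and 0.416 CPM. G0s2 did not pass without vehicle replicate 1 (1.65, adjusted P = 0.0572), and after quantile normalization G0s2 was at 0.948 and Mgll at 0.872. Adipoq (adiponectin) had 0.403, 0.260 and 0.186 CPM in vehicle and 0.345, 0.311, 0.298 and 0.410 CPM with C70, close to the limit of detection in both groups, which overlapped.

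Among 24 collagens (median 0.14), 8 (33.3%) were called, all of them higher, against 5.89% of all genes. The basement membrane chains Col4a1 and Col4a2 were abundant, and Col4a2 had 2207, 2346 and 2286 CPM in vehicle and 3283, 3623, 3365 and 3297 CPM with C70. Col4a1 rose by 0.47 and Col4a2 by 0.57. These neighbours overlap on opposite strands. Col23a1, a transmembrane collagen, rose from 22.4, 23.6 and 24.1 CPM to 52.99, 54.3, 52.3 and 52.0 CPM, and Col7a1, the anchoring fibril collagen, rose by 1.05. The other 4 rose by 0.43 to 0.80. Of 24 genes of collagen processing 3 (12.5%) were called, all higher, against 5.89% of all genes. Among the 3 were the lysyl oxidase Loxl4 (0.85) and Crtap (0.53), a subunit of the prolyl 3-hydroxylase complex.

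Of 53 matrix genes other than collagens, 17 (32.1%) were higher and 3 (5.66%) were lower, against 5.89% and 3.09% of all genes. The list's median was 0.14. Ecm1, a secreted glycoprotein, had 85.96, 94.7 and 85.1 CPM in vehicle and 181, 182, 172 and 168 CPM with C70, with no overlap. Prelp and Podn, small leucine-rich proteoglycans, rose by 0.96 and 1.02, and Thbs3, a thrombospondin, by 0.75. Lum (lumican), another proteoglycan of the same class, went the other way, with 42.3, 30.1 and 42.8 CPM in vehicle and 19.9, 18.9, 17.7 and 20.03 CPM with C70, a fall of 1.01. Fbln7, a fibulin, fell by 0.68 and Nid2, a basement membrane linker, by 0.36, which was under the fold change threshold without vehicle replicate 3 (-0.30). Of 38 proteases and inhibitors 10 (26.3%) were higher and 4 (10.5%) were lower, against 5.89% and 3.09% of all genes. Adamtsl4 (1.63), a microfibril-associated protein, Timp4 (1.67), a metalloprotease inhibitor, Adam8 (1.21) and the serine protease Htra3 (1.04) led the rises, and the sheddase Adam19 (-0.39) was among the falls. Of 15 genes with Itga or Itgb symbols 5 (33.3%) were called, all higher, against 5.89% of all genes. The 15 include Itgbl1, Itgb3bp and Itgb1bp1, which are not integrin chains, and Itgbl1 is among the 5. Itgbl1 was not called after quantile normalization (adjusted P = 0.0869) or by limma with trend (0.11), which called 3 of the 15. Itga6, a laminin receptor chain, was at 0.75 and Itga3 at 0.46.

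Genes of the contractile apparatus were called in 5 of 35 cases (14.3%), each of them a rise, against 5.89% of all genes. Tagln (SM22) had 16.6, 20.7 and 15.5 CPM in vehicle and 38.4, 30.7, 32.1 and 34.1 CPM with C70, Mylk, myosin light chain kinase, had 122, 126 and 139 CPM in vehicle and 195, 219, 209 and 198 CPM with C70, and Des (desmin) rose by 0.86 from levels of at most 5.61 CPM. The median over the list was 0.052. Of 33 immediate early genes 7 (21.2%) were called, all higher, against 5.89% of all genes. Among the 7 were Fosl2 (0.42), an AP-1 subunit, and the nuclear receptor Nr4a1 (0.39), and the list's median was 0.21. Of 22 YAP and TEAD targets 4 (18.2%) were higher and 1 (4.55%) was lower, against 5.89% and 3.09% of all genes. Igfbp3, a binding protein of IGFs, led the rises. It had 3.91, 4.47 and 4.503 CPM in vehicle and 16.5, 18.5, 15.98 and 15.3 CPM with C70.

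**Figure D3:**
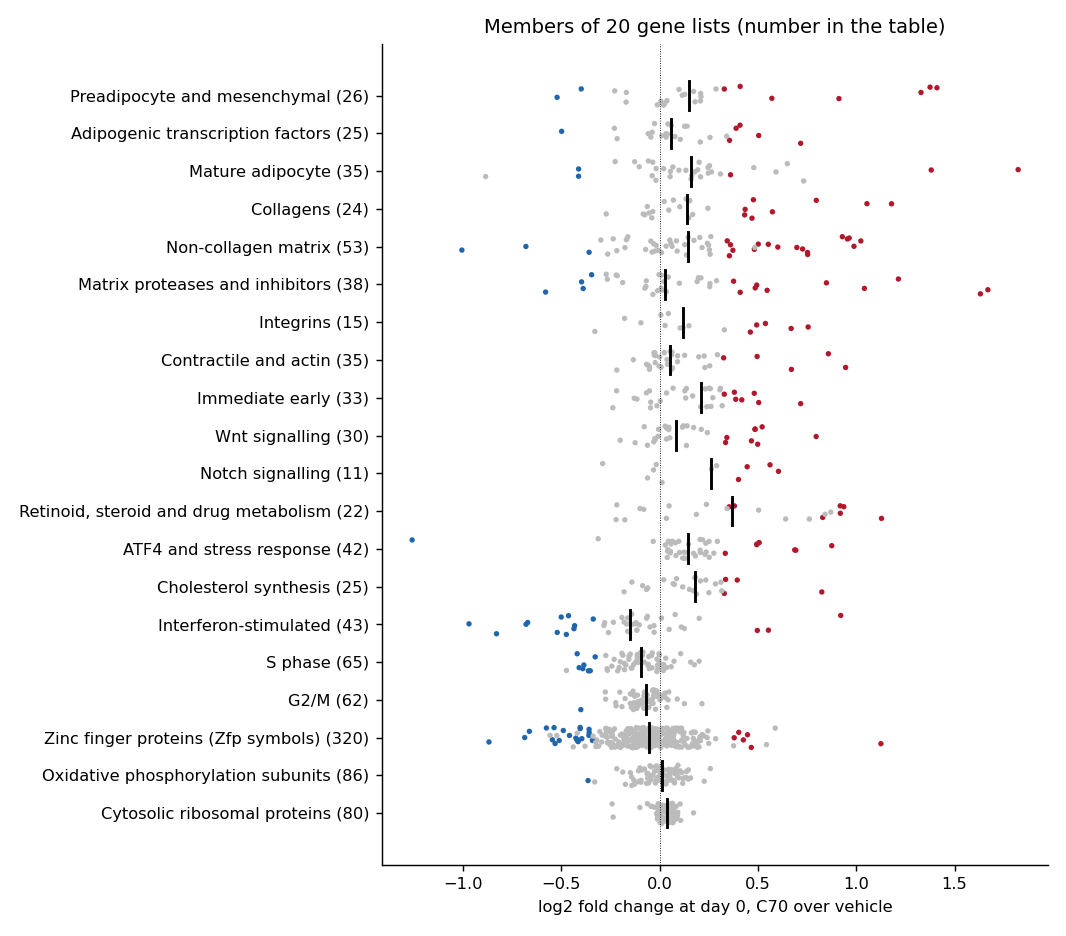
Log2 fold change at day 0 for each member of 20 gene lists, with members called higher in red, lower in blue and not called in grey, and a black bar at each list's median. Medians run from -0.15 for interferon-stimulated genes to 0.37 for retinoid, steroid and drug metabolism, and the ribosomal protein genes lie in a narrow band around 0.036.

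In the Wnt pathway 8 of 30 genes (26.7%) were called, all higher, against 5.89% of all genes. The list's median was 0.084. Lef1, a nuclear effector, had 18.7, 21.1 and 18.7 CPM in vehicle and 27.2, 27.6, 25.8 and 28.2 CPM with C70, Lgr4, an R-spondin receptor, rose by 0.47, and the receptor Fzd4 by 0.48. In the Notch pathway 4 of 11 genes (36.4%) were called, all higher, against 5.89% of all genes. The list's median was 0.26. The receptor Notch3 had 23.9, 26.7 and 22.7 CPM in vehicle and 36.2, 37.8, 35.2 and 39.2 CPM with C70, and the ligand Jag1 rose by 0.44. Lfng, a glycosyltransferase that modifies Notch, rose by 0.56, and the target Hes1 by 0.40, with overlapping groups, which did not pass without vehicle replicate 1 (0.25, adjusted P = 0.054). Of 44 genes of TGF-beta and BMP signalling 9 (20.5%) were higher and 2 (4.55%) were lower, against 5.89% and 3.09% of all genes. The 2 that fell were ligands, Tgfb2 (-0.40) and Tgfb3 (-0.41). Lrrc32 (GARP), which tethers latent TGF-beta, rose by 0.75, Inhbb, an activin subunit, by 0.58, and Id1, a BMP target, by 0.50. In the insulin and IGF list 3 of 24 (12.5%) were higher and 1 (4.17%) was lower, against 5.89% and 3.09% of all genes. The rises were Igfbp6 and Igfbp3, followed by Grb14 (0.70), an adaptor that inhibits the insulin receptor. The fall was that of the secreted glycoprotein Stc1 (-0.68). Stc1 was not called by limma with trend, after quantile normalization, or without vehicle replicate 2 (-0.588) or C70 replicate 4 (-0.585). Of 24 genes of axon guidance 3 (12.5%) were higher and 1 (4.17%) was lower, against 5.89% and 3.09% of all genes. The fall was that of the semaphorin Sema6c (-0.61), not called by limma with trend. Among the rises, Sema3b, a secreted semaphorin, had 9.31, 8.47 and 7.24 CPM in vehicle and 28.9, 33.9, 33.1 and 31.97 CPM with C70, and Slit2 rose by 0.68 and the receptor Nrp2 by 0.45. Of 43 growth factors and receptors 4 (9.3%) were higher and 2 (4.65%) were lower, against 5.89% and 3.09% of all genes. Hgf rose by 0.55 and Egfr by 0.41, while Fgf2, the basic fibroblast growth factor, fell from 39.4, 31.6 and 44.8 CPM to 25.2, 26.4, 27.6 and 30.2 CPM.

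Among interferon-stimulated genes, falls outnumbered rises. In the table, 11 of 43 (25.6%) were lower and 3 (6.98%) were higher, against 3.09% and 5.89% of all genes. The other 29 were not called, and DESeq2 called 8 lower and limma with trend 7. In all, 34 of 43 had a log2 fold change below 0 (median -0.15). Ifit1, which binds foreign RNA, had 184, 168 and 158 CPM in vehicle and 82.4, 102, 72.3 and 90.3 CPM with C70. The values were spread within each group but did not overlap. Ifit2 had 58.3, 62.3 and 60.4 CPM in vehicle and 36.5, 40.04, 37.4 and 37.5 CPM with C70. The immunity GTPase Igtp fell by 0.83 and Gbp7, a guanylate-binding protein, by 0.68. Irgm2, a related GTPase outside the list, fell by 0.87. Parp12, an ADP-ribosyltransferase, fell from 143, 138 and 142 CPM to 109, 106, 91.2 and 103 CPM with little spread. Ifi27 went against the group, with 120.5, 131 and 117 CPM in vehicle and 244, 221, 233 and 233 CPM with C70, and Isg20, an exonuclease, rose by 0.55. The fall of Ifit1 was not called by DESeq2 (adjusted P = 0.213) or by limma with trend (adjusted P = 0.161), and that of Ifit2 not after quantile normalization (adjusted P = 0.0569). Genes of the IFIT, IRG and GBP families have paralogs that can share reads.

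Among complement and inflammatory genes, C3, the central complement component, had 209.7, 206 and 209.6 CPM in vehicle and 329.6, 395, 357 and 345 CPM with C70, and Serping1, the C1 inhibitor, rose from 7.69, 7.69 and 6.78 CPM to 14.3, 15.6, 15.2 and 15.97 CPM. Of 23 complement and coagulation genes 5 (21.7%) were higher and 2 (8.7%) were lower, against 5.89% and 3.09% of all genes. The falls were those of the coagulation inhibitors Tfpi (-0.36) and Tfpi2 (-0.49, not called after quantile normalization, limma adjusted P = 0.0704). Ccl9, a chemokine, had 20.8, 23.8 and 22.7 CPM in vehicle and 47.9, 43.8, 47.9 and 49.1 CPM with C70, and Irak3, an inhibitor of Toll-like receptor signalling, rose by 0.95. Among class I histocompatibility genes, which share sequence with many paralogs, H2-T23 fell by 0.61 and H2-Q4 had a log2 fold change of 0.45, not called without vehicle replicate 2 (0.37, adjusted P = 0.0552).

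Metabolic lists differed. Of 22 genes of retinoid, steroid and drug metabolism 7 (31.8%) were called, all higher, against 5.89% of all genes. The list median of 0.37 was the highest of the lists plotted. Akr1c14, a hydroxysteroid dehydrogenase, had 29.8, 25.9 and 29.99 CPM in vehicle and 54.2, 53.6, 52.4 and 56.3 CPM with C70, Cyp26b1, which degrades retinoic acid, had 12.1, 12.5 and 13.6 CPM in vehicle and 24.6, 25.3, 23.3 and 24.2 CPM with C70, and Ahr, the aryl hydrocarbon receptor, had 18.1, 25.1 and 19.96 CPM in vehicle and 35.9, 41.03, 42.9 and 38.8 CPM with C70. Each was close to 2-fold higher with no overlap. Of 42 ATF4 and stress response genes 7 (16.7%) were higher and 1 (2.38%), Nupr1, was lower, against 5.89% and 3.09% of all genes. A log2 fold change above 0 was found in 39 of the 42 (median 0.14). Gpt2, an alanine aminotransferase, had 112, 117 and 114 CPM in vehicle and 188, 191, 176 and 179.9 CPM with C70, and the amino acid carriers Slc7a11, Slc6a9 and Slc1a5 rose by 0.88, 0.69 and 0.49. Of 25 genes of cholesterol synthesis 4 (16%) were called, all higher, against 5.89% of all genes. The sterol reductase Tm7sf2 (0.82) led these rises. In the glutathione and NRF2 list 4 of 45 (8.89%) were higher, led by Mgst2 (1.69), and 3 (6.67%) were lower, against 5.89% and 3.09% of all genes. The falls were Gss (-0.54), Nqo1 (-0.44) and G6pdx (-0.40). Of 38 genes of hypoxia and glycolysis 6 (15.8%) were called, all higher, against 5.89% of all genes. The lactate exporter Slc16a3 was at 1.46 and Ddit4, an inhibitor of mTORC1, at 0.40. Among 25 genes of glucocorticoid signalling 6 (24%) were higher and 1 (4%), Angptl4, was lower, against 5.89% and 3.09% of all genes. Besides Hsd11b1 the rises included Timp4 (1.67) and Glul, glutamine synthetase (0.42).

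Mitochondrial and translation genes were close to vehicle at day 0. Of 86 oxidative phosphorylation subunits 1 (1.16%) was called, lower, against 3.09% of all genes, and the list's median was 0.012. Counts of called genes by edgeR were 0 among 77 mitochondrial ribosome genes and 0 among 26 genes of the TCA cycle. They were also 0 among 7 mitochondrially encoded genes and 0 among 80 cytosolic ribosomal protein genes, while 8.97% of all genes were called. DESeq2 and limma with trend also called 0 in each of the 4 lists. By edgeR, genes at an unadjusted P under 0.05 numbered 10, 5, 1 and 1, against 3687 of all 11959 genes, a larger share than in any of the 4. The medians of the 4 lists were -0.049, 0.015, -0.061 and 0.036. Slc25a22, a mitochondrial glutamate carrier outside these lists, fell by 0.56. Of 37 lysosomal genes 1 (2.7%) was called, lower, against 3.09% of all genes. It was Lipa, the lysosomal acid lipase, at -0.40.

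Of 65 S phase genes 7 (10.8%) were called, all lower, against 3.09% of all genes, and 53 of 65 had a log2 fold change below 0 (median -0.10). Pola1, the catalytic subunit of DNA polymerase alpha, had 36.5, 41.5 and 35.7 CPM in vehicle and 29.3, 28.7, 26.6 and 28.6 CPM with C70. Prim1, its primase, fell by 0.39 and Pold2, a subunit of DNA polymerase delta, by 0.41. Of 62 G2/M genes 1 (1.61%) was called, a share below that of all genes. It was Plk4, the kinase of centriole duplication, at -0.40, and 51 of 62 were below 0 (median -0.067). Among 31 cyclins, CDKs, their inhibitors and RB family genes, 29 were not called. The G1 cyclin Ccnd1 was the 1 (3.23%) called higher and the RB relative Rbl1 the 1 (3.23%) called lower, against 5.89% and 3.09% of all genes. Ccnd1 had 220.1, 233 and 215 CPM in vehicle and 285, 279, 275 and 284 CPM with C70. This rise of 0.33 was under the fold change threshold without vehicle replicate 3 (0.31), with upper-quartile factors (0.316) and after quantile normalization (0.287), and the fall of Rbl1 (-0.37) was not called without vehicle replicate 2 (-0.27).

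Zinc finger proteins with Zfp symbols fell more often than they rose. In the table, 21 of 320 (6.56%) were lower and 6 (1.88%) were higher, against 3.09% and 5.89% of all genes. A log2 fold change below 0 was found in 216 of the 320 (median -0.055). Zfp110 had 30.9, 28.5 and 30.6 CPM in vehicle and 20.6, 21.3, 21.5 and 19.04 CPM with C70, Zfp41 had 64.3, 56.2 and 62.5 CPM in vehicle and 39.7, 41.5, 44.4 and 42.6 CPM with C70, and Zfp827 and Zfp354c fell by 0.40 and 0.51. Zfp185, an actin-associated LIM protein, Zfp703 and Zfp36l2, an RNA-binding protein of the CCCH class, carry the same prefix and rose by 1.13, 0.40 and 0.45. Many members share close sequence, so reads of some could have been divided between copies. Of 14 Hox genes 3 (21.4%) were called, all lower, against 3.09% of all genes, with Hoxa2 at -0.54 and Hoxb3 at -0.43. Of 24 histone genes 4 (16.7%) were called, all higher, against 5.89% of all genes. Among the 4 were Hist1h2bc (0.38) and Hist2h2be (0.52). Of 29 imprinted genes 2 (6.9%) were lower, Peg10 and Mest (-0.56), a hydrolase linked to fat cell size, and 2 (6.9%) were higher, against 3.09% and 5.89% of all genes. Of 53 germline and meiosis genes listed, only 5 were in the table. The table holds genes over 1 CPM in at least 18 of the 29 samples, so a gene expressed only with C70 could be missing from it. Of the 5 genes, 1 (20%) was called, lower, against 3.09% of all genes. It was Sycp2, a protein of the synaptonemal complex. Sycp2 had 12.9, 13.8 and 17.1 CPM in vehicle and 7.93, 6.68, 6.35 and 8.37 CPM with C70.

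Genes called higher were often at low levels in vehicle. Levels were compared per kilobase of annotated exon. In vehicle, genes called higher had a median of 2.40 CPM per kilobase, genes called lower 4.04 and genes not called 7.13. Of the genes called higher, 373 of 704 (53%, 95% Wilson interval 49.3 to 56.6) were in the lowest 25% of all genes by vehicle level, against 130 of 369 (35.2%, 30.5 to 40.2) of genes called lower. The vehicle level enters the fold change, so this is a description of the called genes and not an independent measure. With a fold change over 1.5, 72.3% of the 329 genes called higher were in that range, and with the adjusted P value alone 31.5% of 1300. The share therefore moved with the fold change threshold. Over the autosomes and the X chromosome, the share of genes called higher ran from 3.78% on chromosome 16 to 8.91% on chromosome 15, and on the X chromosome it was 4.70% of 383 genes. Of 170 antisense genes 19 were higher and 3 were lower, and of 306 processed pseudogenes 1 was called, lower. Over all 11959 genes, 5.89% were higher and 3.09% were lower.

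The rises of day 0 were found again later more often than the falls. At days 1, 2 and 7, genes called higher made up 13.6%, 16.9% and 14.3% of those tested, and genes called lower 7.8%, 13.6% and 4.85%. Each day has its own vehicle samples. Of the 704 genes higher at day 0, 495 (70.3%) were also higher at day 1, 441 (62.6%) at day 2 and 298 (42.3%) at day 7, which are 30.3%, 21.8% and 17.5% of the genes higher on those days. Of the 369 lower at day 0, 119 (32.2%), 100 (27.1%) and 22 (5.96%) were also lower, or 12.8%, 6.17% and 3.79% of the genes lower on those days. The genes higher on all 4 days numbered 246 and those lower on all 4 days 9. At day 7, 75 (20.3%) of the genes lower at day 0 were higher and 22 (5.96%) were lower, against 14.3% and 4.85% of all genes. More rises than falls were thus called among all genes on that day too. In all, 716 of the 1073 called genes were called in the same direction on at least 1 later day.

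Rab12 and Atf7ip were close to vehicle by day 7, at 0.027 and 0.13. Igfbp6, Thy1 and Col23a1 were higher on every day, and Col23a1 went from 1.18 at day 0 to 3.63 at day 2. Lum was -1.01 at day 0 and 0.95, 1.04 and 1.251 on the later days, and Osr1 turned the same way, from -0.40 to 1.29 at day 7. Ifit2 went from -0.67 to 1.15 and 1.72 at days 1 and 2. Cebpa went from 0.39 to -0.52 and -0.85, whereas Pparg was lower at day 0 (-0.50), day 1 (-0.60) and day 2 (-0.57) and not called at day 7 (-0.15).

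**Figure D4:**
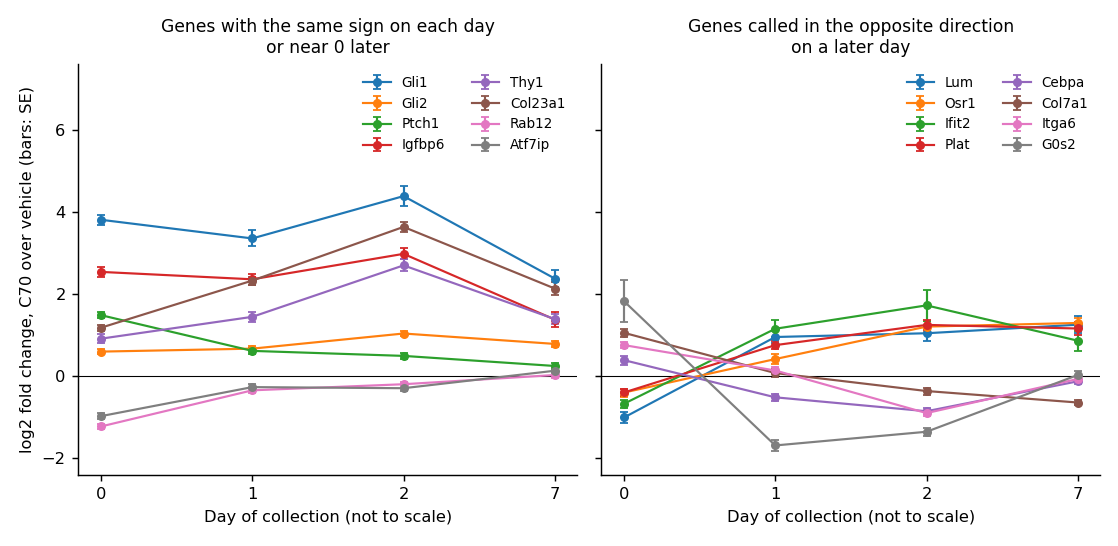
Log2 fold change of C70 over vehicle (bars: standard error) on each day of collection for 16 genes, each day against its own vehicle samples. On the left Gli1 stays at 2.37 or more and Rab12 returns to 0.027. On the right Lum goes from -1.01 to 1.251 and G0s2 from 1.82 to -1.69 at day 1.

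**Figure D5:**
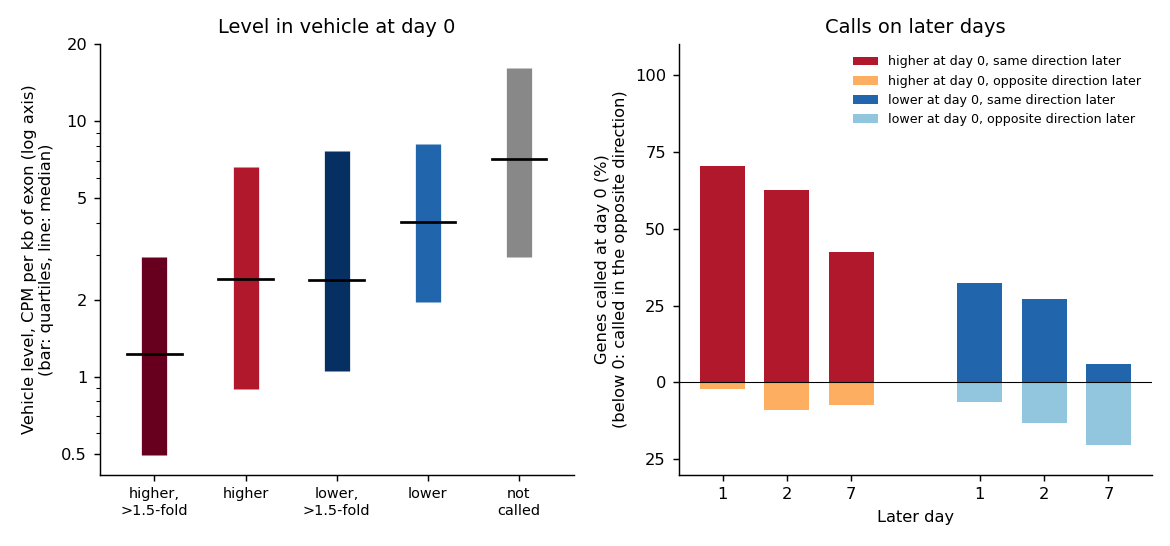
Left, level in vehicle at day 0 (CPM per kilobase of exon, log axis) for called and other genes, with bars for the quartiles and lines for the medians, which are 2.40 for genes called higher and 7.13 for genes not called. Right, share of the genes called at day 0 that were called in the same direction (above 0) or the opposite direction (below 0) on later days, from 70.3% at day 1 for rises to 5.96% at day 7 for falls.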

How the data were processed

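RNA from 3T3-L1 cells was sequenced in 29 samples of 8 groups, and the 7 day 0 samples enter the comparison. The authors aligned reads to GRCm38 with STAR 2.7.2a and deposited gene counts for 11959 genes in 1 table, already filtered so that every gene exceeds 1 CPM in at least 18 samples (the submitters' notes also name edgeR 3.26.8). Although the deposited name calls these normalized, only whole numbers occur and column totals differ, and they were treated as raw counts here. Every listed column matched a sample label. Counts were fitted with edgeR 4.0.16 (R 4.3.3) over all 29 samples and 8 group means, with TMM scaling (1.014 to 1.043 at day 0), the quasi-likelihood test and Benjamini-Hochberg adjustment over 11959 genes. Residual degrees of freedom were 21 and the common biological coefficient of variation was 0.0594. Calls needed an adjusted P under 0.05 and a log2 fold change beyond 0.3219. Standard errors were derived from the same fit. In counts simulated from the day 0 means, 97 of 100 genes changed 2-fold and 91 of 100 changed 1.5-fold were recovered, with 1 false call.

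The genes named were, among calls whose groups did not overlap, the 10 largest rises and falls above the median mean level of 29.74 CPM, the 5 largest of each at or below it and the 3 of each with the smallest adjusted P. Also named, whether or not groups overlapped, were up to 4 called members of each gene list in each direction (2 of smallest P where none was called), and 12 genes chosen for their role. Hedgehog genes were added after their values were seen. Some genes are not reported here. The members and lists were chosen with earlier results of these data known. Alternatives were DESeq2 1.42.0, limma 3.58.1 with trend, other scalings, a stricter filter of 5 CPM in 3 samples, other thresholds, fits with and without a replicate block, the 7 samples alone, and each day 0 sample left out. Promoters came from a RefSeq table with a window for 9119 of 11959 genes. Gene coordinates and biotypes came from GENCODE release M21 on GRCm38, while the study used Ensembl release 97.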

Additional observations from a re-analysis of the deposited data

Results flagged for a closer look

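Among the 4 C70 samples of day 0, 20 of 221 values (CPM of the genes named, list medians and the total count) had 1 replicate beyond Dixon's 95% critical value, and chance gives about 11.1. The total count of C70 replicate 4, 24037170, was above those of the others. C70 replicate 1 stood apart in Hes1 (lowest, 17.2 CPM), Htra3 (lowest, 74.5 CPM) and P2rx3 (lowest, 57.1 CPM). Its median log2 difference from vehicle stood apart for collagen processing (lowest, 0.052) and the mitochondrial ribosome (highest, 0.0061). C70 replicate 2 stood apart in Atf7ip (highest, 75.5 CPM), Ddit4 (highest, 60.2 CPM) and Itga6 (highest, 76.2 CPM). Its median log2 difference from vehicle stood apart for NF-kB targets (highest, 0.15), cholesterol synthesis (lowest, 0.078) and imprinted genes (highest, 0.025). C70 replicate 3 stood apart in Gbp7 (lowest, 23.8 CPM), Slc25a22 (lowest, 17.5 CPM) and Thbs3 (lowest, 60.02 CPM). C70 replicate 4 stood apart in Cebpb (lowest, 58.9 CPM) and Gss (lowest, 12.2 CPM). Its median log2 difference from vehicle stood apart for cyclins and their regulators (highest, 0.015), endoplasmic reticulum chaperones (lowest, 0.030) and zinc finger proteins (highest, -0.035).

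Some genes were called in 1 direction at day 0 and in the opposite direction on a later day, each day against its own vehicle samples, with no overlap between C70 and vehicle samples on either day. Values are log2 fold changes from edgeR's quasi-likelihood test, and the difference between days was not tested. Genes lower at day 0 and higher on at least 1 later day follow. Cacng4 was at -1.41 at day 0 and at 0.52 at day 2 and 0.42 at day 7. Lum was at -1.01 at day 0 and at 0.95 at day 1, 1.04 at day 2 and 1.251 at day 7. Fbln7 was at -0.68 at day 0 and at 1.17 at day 7. Gbp7 was at -0.68 at day 0 and at 0.68 at day 7. Ifit2 was at -0.67 at day 0 and at 1.15 at day 1 and 1.72 at day 2. Angptl4 was at -0.67 at day 0 and at 0.41 at day 2. Mest was at -0.56 at day 0 and at 0.99 at day 7, and was called in its day 0 direction at -0.39 at day 1. Hoxa2 was at -0.54 at day 0 and at 0.33 at day 2 and 0.57 at day 7. Zfp354c was at -0.51 at day 0 and at 0.81 at day 7. Tfpi2 was at -0.49 at day 0 and at 0.54 at day 1. Parp12 was at -0.46 at day 0 and at 0.32 at day 2. Nqo1 was at -0.44 at day 0 and at 0.42 at day 7. Zfp827 was at -0.40 at day 0 and at 0.46 at day 7. Plk4 was at -0.40 at day 0 and at 0.49 at day 7, and was called in its day 0 direction at -0.60 at day 1 and -0.96 at day 2. Osr1 was at -0.40 at day 0 and at 0.42 at day 1, 1.21 at day 2 and 1.29 at day 7. Tgfb2 was at -0.40 at day 0 and at 0.39 at day 2 and 0.72 at day 7. Nid2 was at -0.36 at day 0 and at 0.69 at day 2 and 1.04 at day 7. Tfpi was at -0.36 at day 0 and at 0.55 at day 7.

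Genes higher at day 0 and lower on at least 1 later day follow. G0s2 was at 1.82 at day 0 and at -1.69 at day 1 and -1.35 at day 2. Mgst2 was at 1.69 at day 0 and at -0.47 at day 7, and was called in its day 0 direction at 1.86 at day 1. Mgll was at 1.38 at day 0 and at -1.84 at day 2. Col7a1 was at 1.05 at day 0 and at -0.36 at day 2 and -0.64 at day 7. Prelp was at 0.96 at day 0 and at -0.36 at day 2, and was called in its day 0 direction at 1.29 at day 1 and 0.80 at day 7. Slc7a11 was at 0.88 at day 0 and at -0.74 at day 2, and was called in its day 0 direction at 2.18 at day 1. Tm7sf2 was at 0.82 at day 0 and at -0.51 at day 2, and was called in its day 0 direction at 0.54 at day 1. Itga6 was at 0.75 at day 0 and at -0.90 at day 2. Slc6a9 was at 0.69 at day 0 and at -0.90 at day 2. Gpt2 was at 0.69 at day 0 and at -0.39 at day 2. Isg20 was at 0.55 at day 0 and at -1.10 at day 7, and was called in its day 0 direction at 0.75 at day 1. Hist2h2be was at 0.52 at day 0 and at -0.39 at day 2. Slc1a5 was at 0.49 at day 0 and at -0.47 at day 2. Lef1 was at 0.49 at day 0 and at -0.37 at day 2, and was called in its day 0 direction at 0.40 at day 7. Cebpa was at 0.39 at day 0 and at -0.52 at day 1 and -0.85 at day 2.

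Calls were also opposite, but with samples of the groups overlapping on at least 1 of the days, for Adam19 (-0.39 at day 0 and 0.40 at day 7), Ifit2 (-0.67 at day 0 and 0.86 at day 7), Stc1 (-0.68 at day 0 and 0.59 at day 7) and Sycp2 (-0.98 at day 0 and 0.48 at day 7).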

How the results depend on the processing

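Over the other scalings, tools, fits, the filter of 5 CPM and an adjusted P under 0.01, calls at day 0 numbered 849 to 1172 against 1073, and each kept more rises than falls, with 59.2% (upper-quartile factors) to 67.7% of calls higher. Without 1 of the 7 samples, calls numbered 957 to 1061, with 621 to 681 higher and 336 to 380 lower, and those called in the same direction on a later day 638 to 693. The thresholds moved the counts. With the adjusted P alone, 2366 were called, 1300 higher and 1066 lower, and 1612 in the same direction later. With a fold change over 1.5, 392 were called, 329 higher and 63 lower, and 278 in the same direction later. Replicate numbers did not pair the samples (same-number correlations of -0.000241 to 0.00469), and with a replicate block 1172 genes were called over the 7 samples (1140 without it) and 1054 over all 29, of which 1004 and 1013 were shared with the 1073. The block over the 7 samples called Cebpb (0.337, edgeR adjusted P = 9.17e-06) and Cebpd (0.432, adjusted P = 0.000261), which were not called in the fit reported. C70 replicate 4 has no vehicle sample of its number at day 0, so that block takes it out of the difference between groups. Cebpd was also called without a block, in the 7 samples alone (0.333), after quantile normalization (0.371), by DESeq2 (0.342), by limma with trend (0.34) and without C70 replicate 4 (0.435). Genes that were not called changed sign in a few settings: after quantile normalization Adipoq was at -0.026, Dlk1 at -0.064 and Smo at -0.015, and Cdon ran from -0.0031 (without C70 replicate 2) to 0.0655 (without C70 replicate 1) with 1 sample left out. The cause was not tested. Of 162 genes named, 137 kept their call in every setting that tested them, the 1.5-fold threshold aside. The filter of 5 CPM kept 150 of them in the table. Totals of 18504079 counts and more leave genes under about 1 CPM, such as Angptl7, G0s2 and Mgll, with few reads. Without stated culture origins, between-culture error is not known.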
